A study of Mus musculus with 6 samples.

Results

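Saa1, Saa2 and Saa3 are the 3 inducible serum amyloid A genes of the mouse, and they were described here by their rows in a table of 23402 genes. The rule that chose them used their names alone. RNA was sequenced from whole terminal ileum, where the small intestine ends. The mice were 6 weeks old and had drunk dextran sodium sulfate (DSS), which damages the gut epithelium and serves as a colitis model, until sampling on day 6. The KO group was 3 animals labelled Il17rafl/fl;Atoh1-cre+, in which the Cre recombinase is driven by Atoh1, the transcription factor gene of the secretory lineage (Paneth, goblet and enteroendocrine cells). The WT group was 3 littermates labelled Il17rafl/fl;Atoh1-cre-, so the animals called WT also carried the floxed alleles of Il17ra, and all 6 animals received DSS. Absorptive enterocytes, macrophages and stromal cells lie outside the Atoh1 lineage. No animals without DSS were analysed here.

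Serum amyloid A proteins are small, secreted, lipid-binding acute-phase proteins. Liver is the main source of circulating Saa1 and Saa2 during inflammation, and intestinal epithelium also makes them, in the ileum in response to adherent bacteria through the cytokine IL-22. Saa3 is made by macrophages, adipocytes and epithelial cells in mice. The proteins travel on high-density lipoprotein, bind retinol and bacterial outer membranes, and act on neighbouring lymphocytes to favour IL-17 production. IL-1, IL-6, TNF, IL-17 and IL-22 induce the genes through NF-kB, C/EBP and STAT3. The comparison of KO with WT addresses whether these genes depend on the IL-17 receptor in secretory cells of the ileum during DSS exposure.

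The 3 genes lie in 1 cluster on chromosome 7 that spans 42316 bases (GRCm38, GENCODE M21). Saa3 is at 46711998 to 46715700 on the minus strand, Saa1 at 46740497 to 46742980 on the minus strand and Saa2 at 46751790 to 46754313 on the plus strand. Each has 4 exons in its first listed transcript, and these transcripts are 555 bases (Saa3), 609 bases (Saa1) and 606 bases (Saa2) long. Saa4, the constitutively expressed family member of the liver, and a pseudogene lie between Saa3 and Saa1. No annotated gene overlaps any of the 3, so overlapping or antisense genes do not share their fragments in this annotation.

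**Figure D1:**
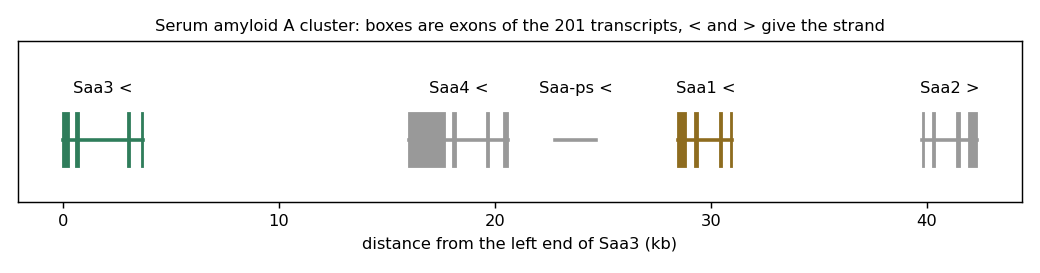
Genes of the serum amyloid A cluster along the chromosome, with distance from the left end of Saa3 in kb on the x axis, exons as boxes and the strand after each name. Saa1 and Saa2 point away from each other with 8809 bases between them, and Saa3 lies at the other end of the cluster.

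Saa1 and Saa2 are near copies of each other, and Saa3 is more distant, which bears on how far the deposited values of the first pair can be told apart. The first 120 bases of each coding sequence show this. They are printed 5′ to 3′ from the start codon, from GENCODE M21 transcripts on GRCm38, with capitals where a base differs from that of Saa1.
Saa1: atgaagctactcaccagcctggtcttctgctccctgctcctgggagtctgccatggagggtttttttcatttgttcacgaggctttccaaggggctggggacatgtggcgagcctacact
Saa2: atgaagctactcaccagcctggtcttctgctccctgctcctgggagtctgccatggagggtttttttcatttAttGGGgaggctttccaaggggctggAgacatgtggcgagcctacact
Saa3: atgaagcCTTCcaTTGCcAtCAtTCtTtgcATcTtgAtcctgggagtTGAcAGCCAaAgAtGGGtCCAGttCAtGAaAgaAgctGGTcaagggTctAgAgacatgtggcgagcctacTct
In this stretch Saa2 differed from Saa1 at 5 bases and Saa3 at 48 bases. Over the 369 bases of coding sequence, Saa1 was 95.1% identical to Saa2 and 76.1% identical to Saa3. The substitutions are spread out. Of all windows of 50 bases in the Saa1 transcript, 13.2% were also found in Saa2 transcripts. Of windows of 75 bases 4.67% were, and of windows of 100 bases 0%. The sources used here give neither the read length nor the authors' handling of fragments that match several genes. A fragment that matches only a shared stretch may therefore belong to Saa2 although it was assigned to Saa1. The reverse does not arise, since Saa2 was listed at 0 in every library.

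The promoters show the same relation, and they are printed because Saa1 was detected while Saa2, with almost the same upstream sequence, was listed at 0. The 250 bases before the RefSeq transcription start are given 5′ to 3′ on the strand of the gene (GRCm38.p6). Capitals mark matches, on either strand, to GGG, any 5 bases and CC (an NF-kB motif) or TTNCNNAA (a C/EBP motif).
Saa1, chr7:46742981-46743230, minus strand: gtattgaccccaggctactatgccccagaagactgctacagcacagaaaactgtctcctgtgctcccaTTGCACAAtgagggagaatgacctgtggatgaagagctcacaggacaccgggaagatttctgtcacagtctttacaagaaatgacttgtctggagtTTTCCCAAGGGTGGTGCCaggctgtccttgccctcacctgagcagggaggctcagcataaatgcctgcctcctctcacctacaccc
Saa2, chr7:46751583-46751832, plus strand: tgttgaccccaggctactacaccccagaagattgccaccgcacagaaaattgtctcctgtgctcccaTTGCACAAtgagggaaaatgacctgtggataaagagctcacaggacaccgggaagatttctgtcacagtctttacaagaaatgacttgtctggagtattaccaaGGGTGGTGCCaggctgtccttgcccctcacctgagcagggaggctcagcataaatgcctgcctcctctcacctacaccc
Saa3, chr7:46715677-46715926, minus strand: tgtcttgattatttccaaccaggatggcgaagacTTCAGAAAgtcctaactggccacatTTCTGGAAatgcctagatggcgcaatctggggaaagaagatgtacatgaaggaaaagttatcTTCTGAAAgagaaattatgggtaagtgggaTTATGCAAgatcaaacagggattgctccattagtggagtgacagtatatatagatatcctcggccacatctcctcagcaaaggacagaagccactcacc
The Saa1 and Saa2 promoters were 94.8% identical over 251 aligned positions, and those of Saa1 and Saa3 48.5% identical. The NF-kB motif matched once in Saa1 and once in Saa2, in capitals next to a second C/EBP match in Saa1 alone, and not in Saa3. The C/EBP motif matched 4 times in Saa3. Of 32851 promoter windows of the same length, 45.8% held the NF-kB motif and 36.8% the C/EBP motif, so both are common. The STAT motif TTCNNNGAA (in 7.02% of promoters) and the letters TATAAA (in 12.4%) matched in none of the 3 windows. These are matches of letters and do not show binding.

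Levels are FPKM (fragments per kilobase of transcript, adjusted for library depth), as the authors deposited them. The 6 libraries each listed between 16317 and 16547 genes above 0, and over the 15 pairs of libraries Spearman's rho lay between 0.980 and 0.985 (a description across genes, not across independent samples). If fragments averaged 200 bases, the steps in low values put the depth of a library at an estimated 8880000 to 10450000 fragments. All 16 housekeeping genes checked were above 0 in every library. Markers of small intestine were high, with the enterocyte gene Fabp2 between 1241 and 2947 FPKM, while both genes of ileal bile acid uptake were low. Fabp6 was at 0.316 to 2.41 FPKM in KO libraries and 0.316 to 9.79 FPKM in WT libraries, and Slc10a2 at 0.223 to 0.391 FPKM in KO libraries and 0.0669 to 1.94 FPKM in WT libraries. These low levels of distal ileal markers leave the position sampled along the intestine in doubt, and terminal ileum is used below as the label gives it. Il17ra itself was not lower in KO, as measured over whole tissue and all exons (7.45 ± 1.22 FPKM in KO and 6.16 ± 0.324 FPKM in WT, SD, n = 3 each), so it gives no check of the deletion, which the labels place in the Atoh1 lineage alone.

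All 3 genes were near the limit of detection in this tissue. Saa1 was listed at 0 in all 3 KO libraries and was above 0 in all 3 WT libraries. Saa2 was listed at 0 in all 6 libraries. Saa3 was above 0 in all 6 libraries, with overlapping levels in KO and WT. By their mean over the 6 libraries, 30.7% of the 17762 genes above 0 anywhere stood below Saa3 and 22.1% below Saa1. Saa4 was at 0 in all 6 libraries as well.

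Saa1 stood at 0, 0 and 0 FPKM in KO 1, 2 and 3, against 0.233, 1.93 and 0.489 FPKM in WT 1, 2 and 3. The groups did not overlap, and WT 2 was well above the other WT animals. The difference of means, KO minus WT, was -0.883 FPKM, with a WT mean of 0.883 ± 0.913 FPKM (SD, n = 3), so the spread among WT animals was as large as the difference. The exact permutation p (two-sided) was 0.1, the smallest value that 3 against 3 libraries allow. Saa1 was under the minimum of 1 FPKM for testing with limma, the linear model fitted across all genes. Without that minimum, limma gave it an unadjusted p of 0.0311 and an adjusted p of 0.980 (Benjamini-Hochberg over 17762 genes). With no minimum 1.31% of genes had an unadjusted p under 0.05 in the direction lower in KO, and 0% passed at an adjusted p under 0.05.

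**Figure D2:**
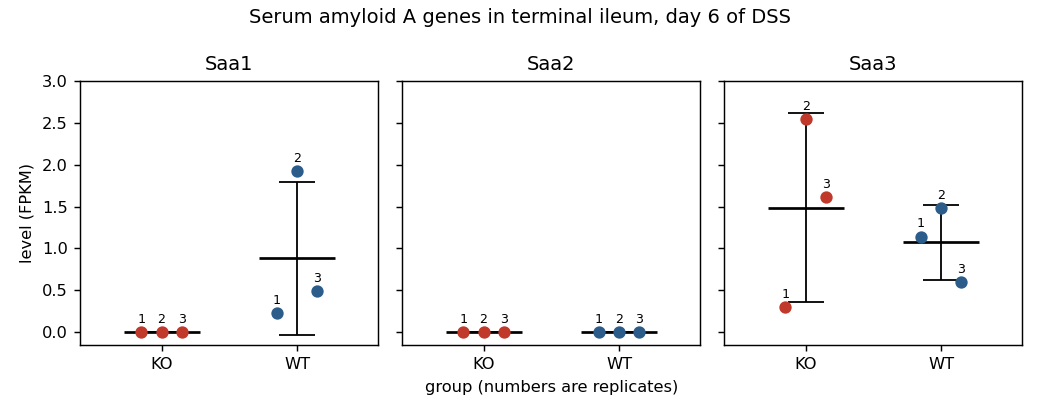
Level of Saa1, Saa2 and Saa3 in FPKM (y axis) in each KO and WT library (points, numbered by replicate), with lines for the group mean and bars for 1 SD (n = 3 each). Saa1 is at 0 in the 3 KO libraries and reaches 1.93 FPKM in WT 2, Saa2 is at 0 throughout, and the KO and WT values of Saa3 overlap.

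The values of Saa1 rested on few fragments. Since whole fragments give steps in FPKM, the number behind each value could be estimated from the value of 1 fragment in each library. The WT values of Saa1 corresponded to 1, 8 and 2 fragments in WT 1, 2 and 3, each within 0.15 of a whole number. Summed over the group this was 0 fragments in KO (exact Poisson 95% interval 0 to 3.69) and 11 fragments in WT (5.49 to 19.7), of which 8 came from WT 2. These intervals cover counting error only, and not the spread between animals. A library with no fragment could still hold some level, and the limit was set at 3 fragments. For Saa1 this was 0.718, 0.776 and 0.801 FPKM in KO 1, 2 and 3. The Saa1 values of WT 1 and WT 3 lie below these limits, and that of WT 2 lies above them. The set limit is lower than the 3.69 that the exact Poisson interval gives for 0 fragments, which the 8 fragments of WT 2 also exceed. Relative to the KO libraries, Saa1 was therefore detectably higher in WT 2, and a difference of KO from WT 1 and WT 3 was not detectable at this depth.

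**Figure D3:**
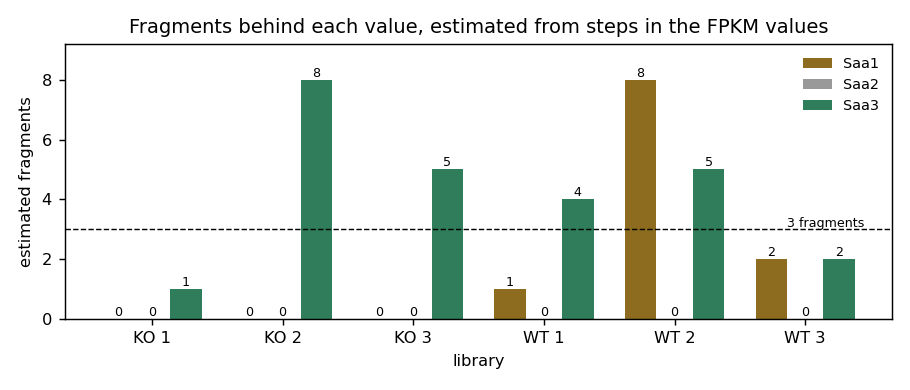
Estimated fragments (y axis) behind the values of Saa1, Saa2 and Saa3 in each library, with a dashed line at the 3 fragments set as the limit for a count of 0. Saa1 passes the line in WT 2 with 8 fragments, and Saa3 passes it in KO 2, KO 3, WT 1 and WT 2.

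Few detected genes had the pattern of Saa1 or its reverse. Of 17762 genes above 0 in at least 1 library, 19 (0.107%) were at 0 in all KO libraries and above 0 in all WT libraries, and 29 (0.163%) showed the reverse. Among the 19, Saa1 had the highest mean level, 0.441 FPKM. Of the 17762 genes, 12695 had a mean of at least 1 FPKM, and none of the 19 was among them. The share over all detected genes therefore does not show how unusual the pattern is for a gene as low as Saa1. Of 1862 genes whose mean lay within a factor of 2 of that of Saa1, 2 (0.107%) had this pattern, Saa1 and Car1, which encodes a carbonic anhydrase, and 1 (0.0537%) had the reverse. In this same range 3.49% of genes had KO and WT values that did not overlap, with KO lower. The genes of this range were matched on FPKM and not on fragments, and at the same FPKM a longer transcript holds more fragments. These shares therefore do not show how often a gene with as few fragments as Saa1 has this pattern. Another of the 19, chosen after its values were seen, was Cxcl1, which encodes a neutrophil-attracting chemokine induced by IL-17. Cxcl1 was listed at 0, 0 and 0 FPKM in KO 1, 2 and 3, against 0.127, 0.393 and 0.271 FPKM in WT 1, 2 and 3. The WT values of Cxcl1 are lower than those of Saa1 and likewise highest in WT 2. The fragments behind them were not estimated, so whether they exceed what a 0 in KO allows was not tested. Cxcl2 and Cxcl5, chemokine genes of the same list, lacked the pattern. Cxcl2 was highest in KO 2 (0.240 FPKM) and Cxcl5 in KO 1 (0.739 FPKM).

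Saa2 was at 0 in each of the 6 libraries, so no difference could be measured. The value of 1 fragment was taken from Saa1, whose transcript has nearly the same length. By the same set limit of 3 fragments, a 0 allows up to 0.718, 0.776 and 0.801 FPKM of Saa2 in KO 1, 2 and 3 and up to 0.697, 0.718 and 0.739 FPKM in WT 1, 2 and 3. In WT 2 the listed level of Saa1 was above the limit for Saa2 in the same library. Whether part of the Saa1 signal there came from Saa2 was not tested, because the table does not show how shared fragments were assigned.

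Saa3, the member made by macrophages, adipocytes and epithelium, stood at 0.296, 2.55 and 1.62 FPKM in KO 1, 2 and 3, against 1.14, 1.48 and 0.594 FPKM in WT 1, 2 and 3. KO 1 was the lowest of the 6 libraries and KO 2 the highest, so the WT values lay inside the KO range. The means were 1.49 ± 1.13 FPKM in KO and 1.07 ± 0.447 FPKM in WT (SD, n = 3 each). On the log2(FPKM + 1) scale, which understates the change of low genes, the fold change of KO over WT was 0.17 (SE 0.36, 95% interval -0.66 to 1.00; limma adjusted p = 0.998 over 12695 genes). The exact two-sided permutation test gave p = 0.6. Of all genes tested, 0% passed at an adjusted p under 0.05, and 2.54% had an unadjusted p under 0.05 in the direction higher in KO. The interval leaves room for a level on this scale lower or higher in KO, so the missing call does not show that KO and WT are alike. The sign of the estimate turned without KO 2 (-0.15) or WT 3 (-0.01), and it was 0.58 without KO 1 (limma adjusted p = 0.727).

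The fragments behind Saa3 were estimated as 1, 8 and 5 in KO 1, 2 and 3 and as 4, 5 and 2 in WT 1, 2 and 3. Summed, these were 14 fragments in KO (exact Poisson 95% interval 7.65 to 23.5) and 11 fragments in WT (5.49 to 19.7), and the intervals overlap. KO 1 and WT 3 were below the limit of 3 fragments set for a count of 0.

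No relation between Saa1 and Saa3 across the animals was detectable. WT 2, the highest library for Saa1, lay below KO 2 and KO 3 for Saa3, and KO 2, the highest for Saa3, was at 0 for Saa1. Over the 6 libraries Pearson's r of log2(FPKM + 1) was 0.03 (exact permutation p = 0.958) and Spearman's rho -0.21 (exact permutation p = 0.733). Pearson's r was -0.08 without WT 2 and WT 3, the libraries farthest from the median of Saa1. Without them Saa1 was above 0 in WT 1 alone, on 1 fragment, so that r is no check of the relation. Saa1 with Saa3 was the 1 relation among the 3 genes that could be computed, since Saa2 does not vary, so no adjustment over several relations applies. The listed make-up of the family follows from the zeros of Saa1 and Saa2 and is no further result. By the set limit of 3 fragments, a 0 in KO 1 allows up to 0.718 FPKM of Saa1, above the 0.296 FPKM of Saa3, which rested on 1 fragment. As listed, Saa3 gave 100% of the summed FPKM of the 3 genes in each KO library, and 83.1%, 43.4% and 54.9% of it in WT 1, 2 and 3. The sum was 0.296, 2.55 and 1.62 FPKM in KO 1, 2 and 3, against 1.38, 3.40 and 1.08 FPKM in WT 1, 2 and 3, and the groups overlapped. The ratio of the group means of this sum, KO over WT, was 0.761, and it was 1.21 without WT 2, 1.07 without KO 1 and 0.490 without KO 2.

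The genes most like each member were found by Pearson's r of log2(FPKM + 1) over the 6 libraries among 11842 genes that passed the minimum of 1 FPKM and have no clone or predicted-locus name. For Saa1 they were Trim56 (r = 0.98), Rabl2, St5, Larp7 and Dhrs1. Trim56, the closest, was at 12.9, 13.0 and 13.2 FPKM in KO 1, 2 and 3, against 13.2, 15.9 and 13.9 FPKM in WT 1, 2 and 3, so it too was highest in WT 2. In all, 22 genes reached an r above 0.9 with Saa1 and 178 with Saa3. In the negative direction, 41 genes passed 0.9 with Saa1 and 101 with Saa3. For Saa3 the closest were Cdc7 (r = 0.99), Map7, Zfp1, Col8a2 and Mmab. With 6 libraries and 11 to 25 fragments per member, these rankings are descriptions only.

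Genes with a role upstream of serum amyloid A were described by lists chosen for the members, and no member of any of them passed at an adjusted p under 0.05, as none of the 12695 genes did (0%). Of all genes tested, 323 higher in KO and 136 lower in KO had an unadjusted p under 0.05, and the median log2 fold change was 0.03. Among 14 cytokines that induce the genes, 8 had a mean under 1 FPKM, and the 6 tested had a median log2 fold change of 0.01. Il22, the epithelial inducer, was at 0.110, 0 and 0 FPKM in KO 1, 2 and 3, against 0.108, 0 and 0 FPKM in WT 1, 2 and 3. Il17a was at 0.201, 0 and 0 FPKM in KO 1, 2 and 3, against 0.0983, 0 and 0 FPKM in WT 1, 2 and 3. Il6 did not exceed 0.119 FPKM in KO and 0.111 FPKM in WT, while Il1b lay between 1.56 and 2.07 FPKM in KO and between 1.55 and 2.63 FPKM in WT. At levels this close to 0, differences between libraries in Il22, Il17a and Il6 were not detectable at this depth.

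The receptors of these cytokines were present. Il22ra1, the epithelial subunit of the IL-22 receptor, was at 25.6 to 40.7 FPKM in KO and 24.8 to 47.5 FPKM in WT, and Il17rc at 48.9 to 57.8 FPKM over all 6 libraries. Of 15 receptors, 14 were tested, with a median log2 fold change of 0.07. The 1 with an unadjusted p under 0.05 was Tnfrsf1b, a TNF receptor, at 6.28 ± 0.868 FPKM in KO and 4.80 ± 0.390 FPKM in WT (SD, n = 3 each; log2 fold change 0.32, limma adjusted p = 0.998). Of 25 signalling and transcription factors at Saa promoters, all were tested, with a median of -0.01, and 1 had an unadjusted p under 0.05. This was Nfkbia, which encodes the NF-kB inhibitor IkBa, at 58.0 ± 9.19 FPKM in KO and 46.4 ± 2.32 FPKM in WT (SD, n = 3 each). Socs3, a feedback inhibitor that STAT3 induces, was at 11.3, 10.3 and 7.40 FPKM in KO 1, 2 and 3, against 8.98, 33.4 and 16.9 FPKM in WT 1, 2 and 3 (log2 fold change -0.80, SE 0.40, limma adjusted p = 0.998). Socs3 was highest in WT 2 and second in WT 3, as Saa1 was, but in WT 1 it lay inside the KO range.

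Epithelial genes that IL-17 or IL-22 induce, the set that serum amyloid A belongs to in the ileum, had mostly negative estimates. Of 22 listed, 14 were tested, 11 of them with an estimate below 0, against 5281 of all 12695 genes tested. The median log2 fold change was -0.52, against 0.03 over all genes. It was -0.30 without KO 1, -0.34 with a pseudocount of 5 and -0.38 without WT 1. Without WT 1, 13 were tested and 1 member passed at an adjusted p under 0.05, while 2 of all genes tested passed. An earlier result of these data already showed the negative direction for several members, so this direction is no independent support. Pla2g2a, a bactericidal phospholipase, and Tifa, an adaptor of NF-kB signalling, were the 2 with an unadjusted p under 0.05. Tifa was at 23.2, 26.8 and 25.5 FPKM in KO 1, 2 and 3, against 27.6, 80.3 and 93.7 FPKM in WT 1, 2 and 3 (log2 fold change -1.21, SE 0.40, limma adjusted p = 0.998). Its KO values lay below all WT values, a pattern found in 2.6% of the 12695 genes tested (and the reverse in 5.77%).

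WT 2 held the highest value of 4 of the 14 genes tested, and of 8.20% of all genes tested, while WT 1 also held that of 4, and of 26.3% of all. The 4 of WT 2, named after their values were seen, were the lectin genes Reg3b and Reg3g and the oxidase pair Duox2 and Duoxa2. Reg3g was at 1150, 1864 and 1595 FPKM in KO 1, 2 and 3, against 1785, 4438 and 2307 FPKM in WT 1, 2 and 3. Duoxa2 was at 7.23, 9.60 and 9.07 FPKM in KO 1, 2 and 3, against 7.69, 25.9 and 23.1 FPKM in WT 1, 2 and 3. In both genes WT 1 lay inside the KO range, as it did for Socs3, and WT 2 and WT 3 stood above it. Nos2, which encodes an inducible nitric oxide synthase, did not follow this order, at 17.9 ± 3.89 FPKM in KO, against 9.40, 15.1 and 121 FPKM in WT 1, 2 and 3.

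**Figure D4:**
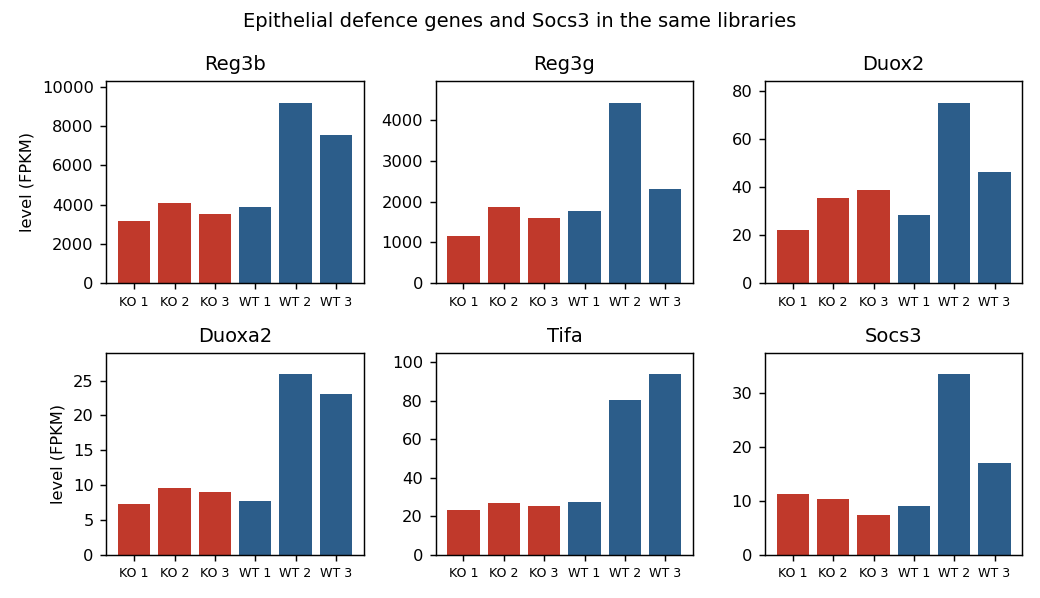
Level in FPKM (y axes, each from 0) of 5 epithelial genes induced by IL-17 or IL-22 and of Socs3 in each KO library and each WT library. WT 2 and WT 3 are the 2 highest libraries in all 6 panels, and WT 1 is close to the KO libraries. The panels were chosen after the values were seen, so their shared order is no support. Other genes of the list were highest elsewhere, such as Reg3a and Pla2g2a in WT 1 and Lcn2 and Pigr in KO 3.

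None of the other acute-phase proteins passed at an adjusted p under 0.05. Of 22 listed, 12 had a mean under 1 FPKM and 5 were at 0 in every library, among them the fibrinogen genes Fga, Fgb and Fgg. The 10 tested had a median log2 fold change of -0.15. Haptoglobin (Hp), the hemoglobin scavenger, was at 0.512, 0.370 and 1.27 FPKM in KO 1, 2 and 3, against 0.751, 2.06 and 3.76 FPKM in WT 1, 2 and 3. C3, the central complement protein, was at 23.8 ± 7.62 FPKM in KO and 14.7 ± 5.32 FPKM in WT (SD, n = 3 each; log2 fold change 0.67, limma adjusted p = 0.998).

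The partners and downstream genes of serum amyloid A were measured as well. Of 15 receptors and binding partners, 10 were tested, with a median log2 fold change of -0.02. Fpr2, the formyl peptide receptor through which the protein attracts phagocytes, was under 1 FPKM in every library, at 0.203 to 0.892 FPKM in KO and 0.358 to 0.842 FPKM in WT. Lrp1, an endocytic receptor for retinol-loaded serum amyloid A, was at 54.0 ± 1.92 FPKM in KO and 49.4 ± 6.34 FPKM in WT (SD, n = 3 each). Apoa1, the main protein of high-density lipoprotein, was at 3421 ± 2083 FPKM in KO and 4193 ± 1541 FPKM in WT (SD, n = 3 each). Of 16 genes of retinoid handling, 12 were tested, 9 of them with an estimate below 0 (median -0.12), and Rbp2, the cellular retinol-binding protein of enterocytes, was at 1079 ± 197 FPKM in KO and 1126 ± 176 FPKM in WT (SD, n = 3 each). Of 14 genes of type 17 lymphocytes, 8 were tested (median -0.03).

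Markers of cells that can make serum amyloid A, and of other cell types, were set beside the members, and their part in the results was not tested. In bulk tissue, fewer cells of a type and less RNA per cell cannot be told apart. All 12 macrophage and monocyte markers were tested, and their summed level was 217 to 303 FPKM in KO and 184 to 247 FPKM in WT. The sum of 10 adipocyte markers was 136 to 168 FPKM in KO and 152 to 292 FPKM in WT, and all 8 tested had an estimate below 0 (median -0.43). Fat-cell genes Plin1 and Fabp4 were highest in WT 2 and WT 3, with Plin1 at 0.766 to 1.04 FPKM in KO, against 1.15, 2.01 and 1.86 FPKM in WT 1, 2 and 3. Of 11 neutrophil markers measured, Mpo and Elane were at 0 in every library, and the list summed to at most 13.3 FPKM in KO and 16.7 FPKM in WT. Of 8 hepatocyte markers, Fgb was at 0 in every library and Alb, the defining one, did not exceed 0.115 FPKM in KO and 0.0519 FPKM in WT, while the list summed to 6.53 to 8.59 FPKM in KO and 6.59 to 23.8 FPKM in WT. Most of that sum was Cyp2e1, a cytochrome P450 of the liver, at 3.35 to 6.30 FPKM in KO and 3.61 to 20.4 FPKM in WT. Enterocyte markers summed to 7009 to 15452 FPKM in KO and 8618 to 15320 FPKM in WT, and secretory lineage markers to 9922 to 14452 FPKM in KO and 10657 to 16624 FPKM in WT. Fibroblast and mesothelial markers summed to 1024 to 1306 FPKM in KO and 905 to 1224 FPKM in WT. Most of that sum was Krt19, a keratin gene, at 771 to 1073 FPKM in KO and 722 to 960 FPKM in WT. The sum therefore says little about the other markers of this list. The 8 B cell markers summed to 11.3 to 89.6 FPKM in KO, highest in KO 2 and low in KO 3, and to 7.42 to 16.1 FPKM in WT.

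The listed neighbours of the cluster other than Ldhc were well above the detection limit. Hps5, next to Saa2, was at 16.7 to 19.6 FPKM over all 6 libraries, and Gtf2h1, a subunit of a general transcription factor, at 18.0 ± 3.07 FPKM in KO and 19.2 ± 0.694 FPKM in WT (SD, n = 3 each). Ldha, a lactate dehydrogenase, was at 479 ± 41.8 FPKM in KO and 512 ± 83.0 FPKM in WT (SD, n = 3 each). Ldhc, its testis form, did not exceed 0.286 FPKM in KO and 0.177 FPKM in WT.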

How the data were processed

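The authors deposited 1 table of FPKM values with 1 column per library, and each column's name gave its group and replicate. The submitters' processing notes name STAR, Cufflinks and Cuffnorm, among other tools, and the builds GRCm38 and mm10. Versions, strand use and the scaling between libraries: not given in the sources used here. Each library was taken as 1 animal, which the labels do not state per sample, so p-values measure the spread between these libraries.

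The 12695 genes whose mean reached 1 FPKM were tested on log2(FPKM + 1) with limma 3.58.1 (R 4.3.3), with an intensity trend, two-sided, Benjamini-Hochberg adjusted, threshold 0.05. Of the 3 members, 1 (Saa3) passed that minimum. Single values were compared by exact permutation. The fit was tested on simulated data. Fragments were estimated from the mode of ratios of low values between each library and WT 1, over genes whose coding transcripts are 400 to 900 bases long (12 to 19 of 76 to 93 ratios lay in the mode). The smallest whole numbers within 0.15 were taken, so the true numbers could be multiples of them. Sequences were aligned with Biopython 1.88.

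The members, the 17 lists (236 entries, 1 not matched and 2 found under an older symbol) and the tests were chosen with earlier results of these data known. Genes were named from the members, their neighbours, the 3 members of each list with the smallest p and the 1 with the highest mean, and the 5 most like Saa1 and Saa3. Not every gene this rule takes is printed, and which were printed, and those named outside it, was chosen after their values were seen.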

Additional observations from a re-analysis of the deposited data

How the results depend on the processing

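The directions of Saa1 (0 in every KO library) and Saa2 (0 in every library) could not turn under a scaling or with a library left out, so these settings bear on the size of the Saa1 difference alone. The Saa1 difference ranged from -1.21 to -0.361 FPKM with 1 library left out, the smallest size without WT 2. Pseudocount, trend and robust settings do not enter the Saa1 and Saa2 values, and a minimum of 5 FPKM leaves Saa3 untested. The log2 fold change of Saa3 kept its sign and missed the threshold in 13 settings and turned in 2, without KO 2 (-0.15) and without WT 3 (-0.0078). With 1 library left out it ranged from -0.15 to 0.58. The summed FPKM ratio ranged from 0.490 to 1.21 with 1 library left out and was 0.737, 0.827 and 0.696 under the 3 scalings. The count of genes called was 0 in the main analysis and 2 with a pseudocount of 0.1, 2 with a pseudocount of 5, 2 after rescaling to an equal sum and 0 to 46 with 1 library left out, 46 without KO 3. Rescaling to an equal sum moved the median log2 fold change of all genes to 0.13, and that of Saa3 to 0.24. The cause of these changes was not tested. Deviations of same-numbered KO and WT libraries correlated at -0.13, 0.03 and -0.11. Such correlations cannot show whether the replicate numbers mark pairs of animals, which the labels do not state. With the number as a replicate block, 1 gene was called and Saa3 had an adjusted p of 0.999. With 25 Saa3 and 11 Saa1 fragments in all, depth limits every statement on these genes.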
